A study of Drosophila melanogaster with 6 samples.

Results

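The proximal X chromosome segment is the stretch of the Drosophila melanogaster X from 19561266 to 22417005 (build dm3), 2.86 Mb at the centromere end of the chromosome. Its members were all rows of the deposited gene table that lie within these bounds, except symbols that start with RpL, RpS, mRp, Cyp, Gst, Vha or snoRNA, which left out 7 rows. This gave 190 members of 14770 rows, to be set against 2083 rows on the X outside the bounds. No row of the X lay beyond the right bound. The bounds were chosen by fold changes measured in these same libraries, so the fold changes inside them are a description, and counts of members past a test support nothing by themselves.

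Messenger RNA with poly(A) tails was sequenced from 6 libraries of S2-DRSC cells, a line grown from late embryos. The S2 group holds 4 libraries of wild-type cells, and the S2-AbdA group holds 2 libraries of the same line stably transfected with HA::AbdA, an epitope-tagged copy of the Hox protein Abdominal-A. Cells of both groups were kept in 10 µM copper sulphate for 24 h. The sources used here give neither the promoter of the transgene nor whether the transfected cells are 1 clone. Cells transfected without AbdA are not among the labelled groups, so AbdA itself and the history of the transfected line cannot be told apart. Nothing in the labels says that replicates came from separate cultures, so p-values measure the spread between these libraries, which may be technical. The descriptions of S2 replicates 3 and 4 differ from those of replicates 1 and 2, so the S2 libraries were kept as 2 sets.

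The X is subject to dosage compensation in flies. In male cells, S2 cells among them, the male-specific lethal (MSL) complex with the noncoding RNAs roX1 and roX2 binds active X genes, acetylates histone H4 and raises their transcription. Cultured S2 lines are also known to carry gains and losses of chromosome stretches. DNA was not measured in the files used here, and the part of DNA copy number in the values that follow was not tested. In bulk RNA, fewer cells that express a gene and less RNA per cell cannot be told apart.

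Totals ran from 34233132 to 69858688 counts per library. The transgene's own gene, abd-A, had 17289 and 10909 counts per 1000000 (CPM) in the S2-AbdA libraries. In S2 it had 29.1 and 52.7 CPM in replicates 1 and 2 and 0 and 0.0429 CPM (3 counts) in replicates 3 and 4, so the S2 sets differed in abd-A reads too, and the part of this in the results was not tested. Of the blood cell markers looked up, NimC1 was not found. The 7 found (crq, Sr-CI, He, Pxn, Hml, srp and eater) were each above 1 CPM in at least 1 library. Their summed levels ran from 383 CPM in S2 replicate 3 to 1410 CPM in S2 replicate 1. Not all were high throughout. In S2 replicates 1 and 2 Sr-CI had 49.1 and 22.1 CPM, He 4.29 and 3.75, and eater 84.9 and 66.1. In the other 4 libraries they had 0.186 to 2.29, 0.315 to 1.19 and 0.744 to 9.6 CPM. Other markers differed in other ways. Pxn had 188, 56, 62.6 and 230 CPM in S2 and 7.68 and 23.2 CPM in S2-AbdA, below all S2 libraries. Hml had 202, 135, 24.8 and 51 CPM in S2 and 14.9 and 168 CPM in S2-AbdA. Over the 6 libraries crq ran from 233 to 607 CPM and srp from 60.9 to 370 CPM. The part of these differences in the results was not tested. Neuron markers summed to 23 to 69.3 CPM, from elav and brp, and muscle markers to 18.4 to 55.6 CPM, nearly all from Mef2. The 4 germline markers (aub, vas, osk and nos) summed to 58.9 and 61.2 CPM in S2 replicates 1 and 2. In the other 4 libraries they summed to 5.73 to 12.7 CPM. Nearly all of this came from aub and osk, with vas and nos under 1 CPM in every library. The part of these markers in the results was not tested. S2 replicate 3 stood apart from the rest, with a scaling factor of 0.752 where the other 5 libraries lay between 1 and 1.10. The main counts and medians that rest on it are given with and without it.

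The segment supplied a larger share of the X chromosome's RNA in both S2-AbdA libraries than in any S2 library. Members held 6.19%, 6.18%, 5.19% and 6.06% of all X counts in S2 replicates 1 to 4, and 10.2% and 9.99% in the S2-AbdA libraries. The groups did not overlap, with or without S2 replicate 3. As means of sets the share was 6.19% ± 0.00707 (SD, n = 2) in S2 replicates 1 and 2, 5.62% ± 0.615 (SD, n = 2) in S2 replicates 3 and 4, and 10.1% ± 0.148 (SD, n = 2) in S2-AbdA. Without the 3 members with the most counts the shares were 5.13%, 5.21%, 4.33% and 5.11% in S2 and 8.8% and 8.6% in S2-AbdA, and the groups again did not overlap. The X as a whole held 14.9% to 15.5% of all counts in S2 and 16.9% and 16.2% in S2-AbdA.

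**Figure D1:**
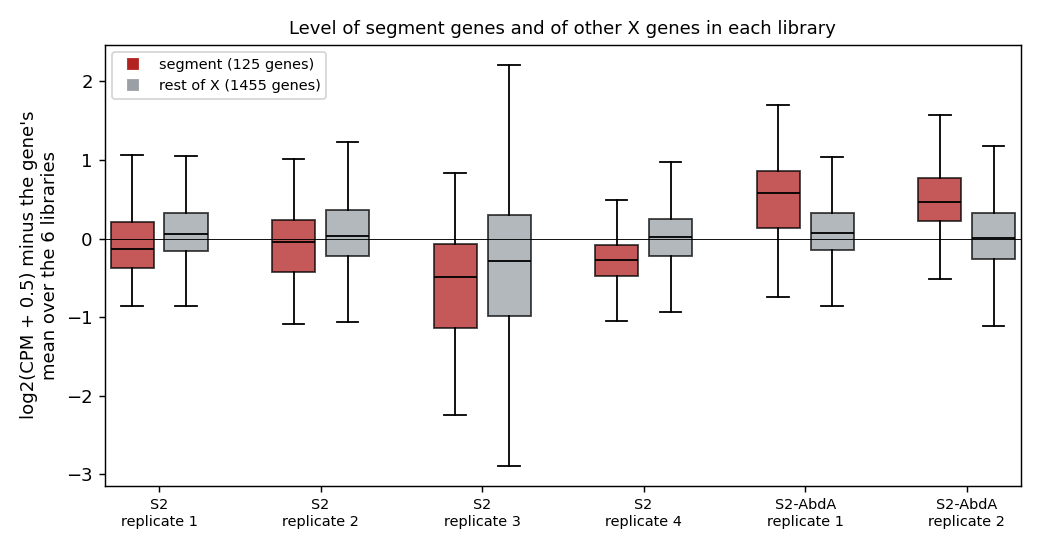
Level of each tested gene in each library, as log2(CPM + 0.5) minus the gene's mean over the 6 libraries, for 125 segment genes (red) and 1455 other X genes (grey). Boxes span the quartiles with the median as a line, and whiskers run to the farthest gene within the usual 1.5 box lengths; red sits above grey in the S2-AbdA libraries and below it in the S2 libraries.

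Of the 190 members, 125 passed the filter on low counts and were tested, among 9375 genes in all. The plot of levels by library shows these genes library by library. Centred on each gene's mean, the segment's median minus that of the rest of the X was -0.20, -0.08, -0.20 and -0.29 in S2 replicates 1 to 4, and 0.51 and 0.45 in the S2-AbdA libraries. All 4 S2 libraries were below 0 and both S2-AbdA libraries above it. Taken pair by pair, S2-AbdA exceeded S2 replicates 1 and 2 by 0.60 to 0.72 (4 pairs) and S2 replicates 3 and 4 by 0.63 to 0.78 (4 pairs) on this log2 scale.

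Against S2 replicates 1 and 2, the typical segment gene was higher in S2-AbdA while the typical X gene elsewhere was level. The median log2 fold change of the 125 tested members was 0.74, with quartiles -0.00 and 1.15, and 93 of them were above 0. Over the 1455 tested X genes outside the median was -0.02, with quartiles -0.36 and 0.30, and over chromosomes 2 and 3 it was also -0.02. Past edgeR's quasi-likelihood test at an adjusted p of 0.1, 27 members rose and 7 fell, while 3.0% of all tested genes rose and 7.36% fell. Since the bounds were set with these values known, nothing is read from those member counts. They also moved strongly with single libraries: 5 members rose when either S2 replicate 1 or S2 replicate 2 was left out, 6 without S2-AbdA replicate 1 and 14 without S2-AbdA replicate 2. Leaving out S2 replicate 3 gave 71, and leaving out S2 replicate 4 gave 68. The falls were 4 without S2 replicate 2 or without S2-AbdA replicate 1, and 11 without S2 replicate 3 or without S2 replicate 4. At an unadjusted p under 0.05, 52 members were higher and 11 lower. The test shared 1 estimate of the spread over the 3 sets, so S2 replicates 3 and 4 also entered these p-values. With only replicates 1 and 2 of both groups, 69 members rose and 11 fell. A library left alone in its set was judged by the spread of the other sets. Across those same 6 omissions the segment's median minus that of the rest of the X held between 0.76 and 0.83, against 0.76 with all libraries.

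Against S2 replicates 3 and 4 the segment was again higher as a body. The median log2 fold change was 0.87 over the 125 members, with quartiles 0.12 and 1.53, against -0.07 over the X outside. There 55 members rose and 6 fell, while 14.7% of all tested genes rose and 17.1% fell. Without S2-AbdA replicate 1 the number that rose was 35, and without S2-AbdA replicate 2 it was 28; the falls ran from 2 without S2-AbdA replicate 1 to 14 without S2 replicate 4. Without S2 replicate 3, 65 rose and the members' median was 0.94. The median difference from the rest of the X was 0.94 with all libraries, 0.98 without S2 replicate 3 and 0.69 without S2 replicate 4. All 4 pairs of libraries gave less than 0.94, from 0.63 to 0.78. With scaling by library size alone the median of all tested genes was 0.30 here and -0.27 between the S2 sets, where it was -0.01 in both with the scaling used, so fold changes against S2 replicates 3 and 4 are best read relative to the X outside. Both comparisons use the same S2-AbdA libraries and are given side by side, not as independent of each other.

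The 2 sets of S2 libraries also differed from each other, in both directions. From S2 replicates 1 and 2 to replicates 3 and 4 the members' median was -0.24 and that of the X outside was 0.06. Of the members 21 rose and 32 fell, while 18.1% of all tested genes rose and 18.9% fell. Under library size alone 6 rose and 30 fell, and under upper-quartile scaling 12 rose and 34 fell. With S2 replicate 1 left out 3 rose and 20 fell, and with S2 replicate 2 left out 1 rose and 13 fell. With S2 replicate 3 left out 11 rose and 26 fell, the members' median was -0.12 and the difference from the rest of the X went from -0.30 to -0.16. With S2 replicate 4 left out 36 rose and 47 fell. Pair by pair the segment minus the rest of the X was between -0.19 and -0.13, smaller than any of the 8 pairs with S2-AbdA in size.

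Gene by gene, both S2-AbdA libraries lay above all 4 S2 libraries in CPM for 67 of the 125 tested members (53.6%). That held for 16.7% of all 9375 tested genes and for 223 of 1455 X genes outside (15.3%). Both S2-AbdA libraries lay below all 4 S2 libraries for 4 members, against 8.12% of all tested genes. Without S2 replicate 3 the S2-AbdA libraries lay above the other S2 libraries for 76 members (60.8%), for 17.4% of X genes outside and for 18.9% of all tested genes.

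**Figure D2:**
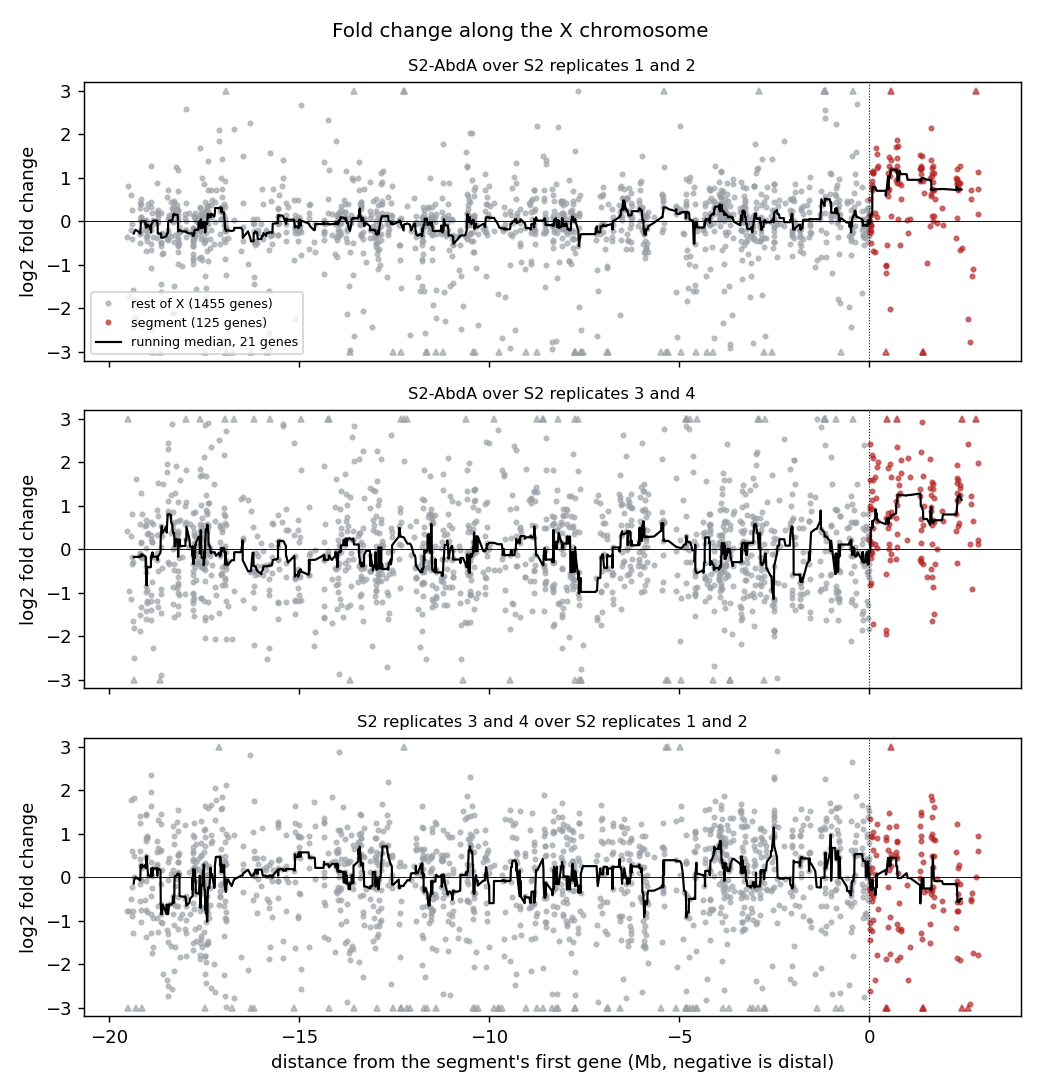
Log2 fold change of each tested X gene (y axis, cut at the triangles) against its distance in Mb from the start of the segment's first gene, for the 3 comparisons in turn. Red points are the 125 segment genes, grey points the 1455 other X genes and the black line a running median, which leaves 0 near the segment's left bound in both S2-AbdA panels.

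The raised level against S2 replicates 1 and 2 did not begin at the left bound but a few genes inside it, as the profile along the X shows. The 4 rows just outside had log2 fold changes against S2 replicates 1 and 2 of 0.16 (Ranbp21), -0.03 (CG14215), 0.13 (CG14223) and 0.14 (Ssu72). The first 4 inside had -0.03 (Zw), -0.21 (et), 0.15 (dome) and 0.51 (Ubqn). From Zw to meso18E, over 45.8 kb, 12 tested members had a median of -0.07 against S2 replicates 1 and 2 and a range of -0.50 to 0.51. None passed edgeR's test there (0 also at an unadjusted p under 0.05 and 0 by DESeq2), and none had both S2-AbdA libraries above all 4 S2 libraries. The same 12 had a median of 0.14 against S2 replicates 3 and 4, and 2 of them, et and dome, rose, where 14.7% of all tested genes did. The 12 tested X genes just before the segment, CG14222 to Ssu72, had the same median of -0.07 against S2 replicates 1 and 2. From Bap on, to the last gene, 113 tested members had a median of 0.85 against replicates 1 and 2 and 0.89 against replicates 3 and 4, 67 of them had both S2-AbdA libraries above all S2 libraries, and the median ratio of mean CPM over S2 replicates 1 and 2 was 1.85. The break at Bap was placed after the values were seen.

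The genes before Bap show this in single libraries. Zw, which encodes glucose-6-phosphate dehydrogenase of the pentose phosphate pathway, had 35.6, 34.8, 20.3 and 28.5 CPM in S2 and 33.1 and 37.5 CPM in S2-AbdA. Cdc42, a small GTPase that organises actin and cell polarity, had 490, 460, 323 and 432 CPM in S2 and 438 and 477 CPM in S2-AbdA. For meso18E the levels were 85.9, 87.6, 38.5 and 85.4 CPM in S2 and 78.9 and 87.4 CPM in S2-AbdA. For Cdc42 and meso18E the S2-AbdA libraries fell within the S2 range. Just across the break, Bap, the shared beta subunit of clathrin adaptor complexes, had 256, 228, 69 and 220 CPM in S2 and 354 and 503 CPM in S2-AbdA, with no overlap between the groups, and the difference passed against S2 replicates 3 and 4 alone (log2 1.34, edgeR adjusted p = 0.0505, lost without S2-AbdA replicate 2), with 0.79 against replicates 1 and 2.

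Next to Zw lie 2 genes of the JAK/STAT pathway that differed between the S2 sets. The gene dome encodes the pathway's receptor and et a related receptor that dampens it. The level of et was 16.2 and 13.9 CPM in S2 replicates 1 and 2, 1.2 and 2.95 CPM in S2 replicates 3 and 4, and 9.62 and 17 CPM in S2-AbdA. Between the S2 sets its level fell (log2 -2.63, edgeR adjusted p = 0.00208) and S2-AbdA against S2 replicates 1 and 2 did not pass (-0.21). It rose in S2-AbdA over S2 replicates 3 and 4 by log2 2.42 (adjusted p = 0.00487). For dome the levels were 102 and 134 CPM, 19.2 and 56.3 CPM, and 112 and 157 CPM in the same order. It fell by 1.45 on the log2 scale between the S2 sets (edgeR adjusted p = 0.0365), a call lost without S2 replicate 2. S2-AbdA stood above S2 replicates 3 and 4 by log2 1.60 (adjusted p = 0.0285), a call lost without S2-AbdA replicate 2.

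From Bap onward the median was above 0 along the whole segment. Cut into 5 stretches of equal length, the median log2 fold changes against S2 replicates 1 and 2 were 0.84 (33 genes), 0.88 (17), 0.95 (34), 0.20 (8) and 0.73 (21). Against S2 replicates 3 and 4 they were 0.76, 1.28, 0.64, 0.84 and 1.14 in the same order. The fourth stretch has 8 tested genes, and 4 of them had both S2-AbdA libraries above all S2 libraries. The rest of the X in 11 consecutive stretches of 125 tested genes gave medians of -0.14 to 0.17 against S2 replicates 1 and 2 and of -0.29 to 0.09 against S2 replicates 3 and 4. Medians of fewer genes vary more, so this range is no scale for the smaller stretches, least of all the fourth. The 5 stretches also start at a break placed after the values were seen, which the 11 do not. At the right end the last 4 rows were CG40485, FucTC, Rab21 and CG13865. FucTC, a fucosyltransferase, had a log2 fold change of 0.18, Rab21 1.15 and CG13865, now named Coa7, 0.73. CG40485 had 0 and 3 counts in S2 replicates 1 and 2 and is given no fold.

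**Figure D3:**
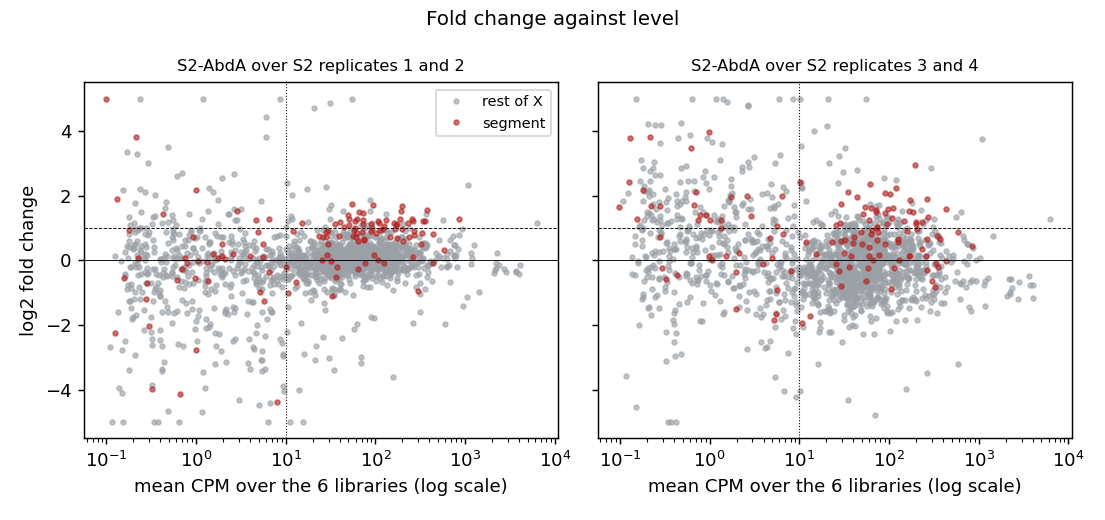
Log2 fold change of S2-AbdA over each S2 set (y axis, values beyond the axis drawn at its edge) against mean CPM over the 6 libraries (log scale) for segment genes (red) and other X genes (grey). Right of the dotted line at 10 CPM the red points gather near the dashed line at a log2 fold change of 1 in the left panel, and left of it they scatter around 0.

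The members were also described by level. The split at 10 CPM was chosen after the values were seen, and the mean over all 6 libraries that it uses moves with a gene's own change. Of the stretch from Bap on, 73 members had a mean of at least 10 CPM. Their median log2 fold change against S2 replicates 1 and 2 was 0.96 and the median ratio of mean CPM 1.99. Of these 73, 67 were above 0, 65 were above 0.5, 22 rose and 0 fell, and 57 had both S2-AbdA libraries above all 4 S2 libraries. At an unadjusted p under 0.05 edgeR gave 44 rises and 3 falls among the 73 (the falls were Or19b, CG32521 and CG34334), and DESeq2's adjusted test gave 38 rises and 1 fall. The same 73 had a median of 0.87 against S2 replicates 3 and 4. For the 40 members under 10 CPM the median was 0.06 in that first comparison and 1.25 against S2 replicates 3 and 4, and 5 of the 40 rose and 7 fell against replicates 1 and 2. With the level taken instead from S2 replicates 3 and 4, which the comparison with replicates 1 and 2 does not use, 72 members from Bap on had at least 10 CPM, a median of 0.97, 22 rises and 0 falls, and the other 41 had a median of 0.07, 5 rises and 7 falls. This choice of level was added after the data were seen. A gene could pass the filter on low counts through 1 set alone. Among the falls, CG42581 had 31 and 35 counts in S2 replicates 1 and 2 and 4, 4, 2 and 3 in the other libraries. CG15446 had 62 and 83 counts against 3, 0, 3 and 7. Among the rises, Peritrophin-A and CG40485 passed the filter through their S2-AbdA counts alone. Such rises and falls, and the median under 10 CPM, thus depend in part on which genes the filter let in. Outside the segment, 1000 X genes of at least 10 CPM had a median of 0.03, and 13.9% of them had both S2-AbdA libraries above all S2 libraries. Against S2 replicates 1 and 2, 15 of these 1000 rose and 26 fell. Of 455 X genes outside under 10 CPM, 23 rose and 80 fell, with a median of -0.23. With the level from S2 replicates 3 and 4, 10 rose and 19 fell of 975 genes, and 28 rose and 87 fell of the other 480.

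Fold changes against S2 replicates 3 and 4 moved with exonic length across the whole X. The 73 well expressed members were therefore also put into 3 groups of 25, 23 and 25 by exonic length. From short to long their median log2 fold changes were 0.95, 0.98 and 0.96 against S2 replicates 1 and 2, and 0.58, 0.89 and 1.22 against S2 replicates 3 and 4. X genes outside, in length groups of 478, 209 and 311 genes, gave -0.03, 0.04 and 0.13 in the first comparison and -0.65, 0.07 and 0.32 in the second. Short and long members thus differed little against S2 replicates 1 and 2. The part of transcript length in the second comparison was not tested.

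**Figure D4:**
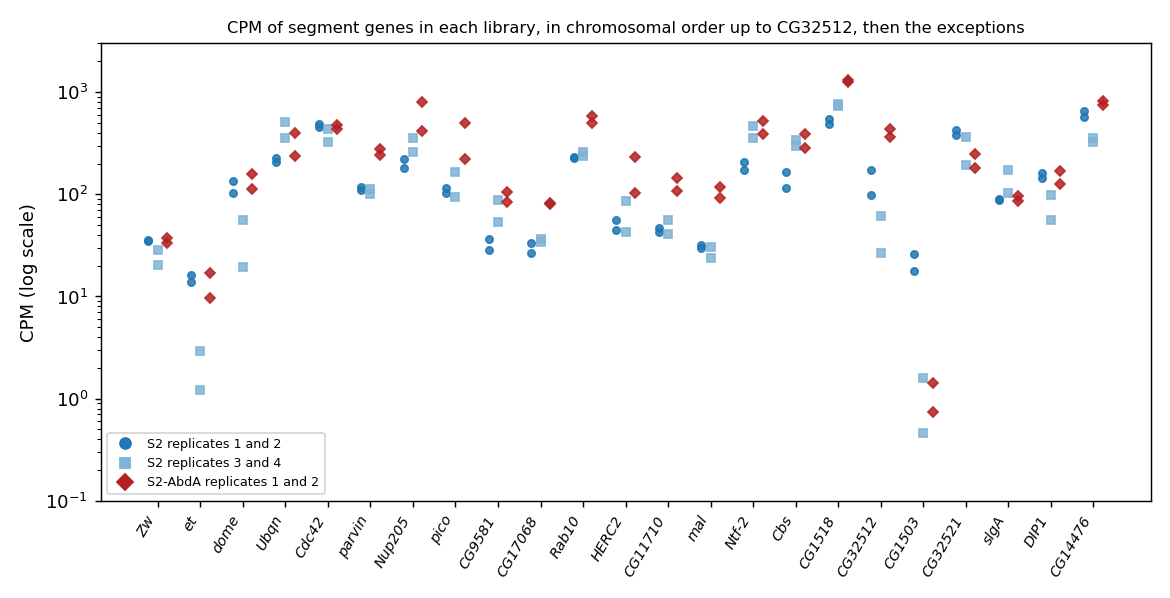
Level in CPM (log axis) of 23 named segment genes in each of the 6 libraries. The genes run along the x axis, each point is 1 library, and the S2-AbdA points lie above the S2 points for genes such as mal, Rab10 and parvin but among them for Cdc42.

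The well expressed members with the largest rises over S2 replicates 1 and 2 encode proteins of varied roles, and the plot of named genes gives their levels. The gene mal, or maroon-like, encodes the sulfurase that activates the molybdenum cofactor of xanthine dehydrogenase. It had 31.7, 29.8, 23.8 and 30.2 CPM in S2 and 117 and 92.2 CPM in S2-AbdA. The S2 libraries lay close together and both S2-AbdA libraries far above them. Its log2 fold change was 1.73 (SE 0.35, edgeR adjusted p = 0.00838) against S2 replicates 1 and 2 and 1.64 (adjusted p = 0.00993) against replicates 3 and 4. The first call was lost without S2 replicate 1 or S2 replicate 2, at an adjusted p of up to 0.148.

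HERC2 encodes a giant ubiquitin ligase. Its levels were 55.6, 44.7, 42.5 and 85.1 CPM in S2 and 234 and 103 CPM in S2-AbdA. The 2 S2-AbdA libraries differed between themselves more than the S2 libraries of a set did, yet both were above all S2 libraries. The gene pico, an adaptor of the Ena/VASP actin regulators, showed the same split, with 102, 114, 94.9 and 165 CPM in S2 and 493 and 224 CPM in S2-AbdA. Nup205, a scaffold protein of the nuclear pore, had 223, 180, 262 and 357 CPM in S2 and 795 and 412 CPM in S2-AbdA. Against S2 replicates 1 and 2 the log2 fold changes were 1.70 for HERC2, 1.68 for pico and 1.54 for Nup205 (edgeR adjusted p = 0.0335, 0.0272 and 0.0283). Each of these 3 calls was lost without S2 replicate 1, S2 replicate 2 or S2-AbdA replicate 1. S2-AbdA replicate 1 was the higher of the pair in all 3 genes.

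Genes of protein and RNA handling come next. CG1518, now Stt3A, encodes the catalytic subunit of the oligosaccharyltransferase that adds sugar chains to proteins in the endoplasmic reticulum. It had 551, 489, 757 and 736 CPM in S2 and 1318 and 1246 CPM in S2-AbdA. The groups did not overlap, and the log2 fold changes were 1.26 (edgeR adjusted p = 0.0441) against S2 replicates 1 and 2 and 0.44 (adjusted p = 0.365) against replicates 3 and 4. The first of these calls was lost when S2 replicate 1, S2 replicate 2 or either S2-AbdA library was left out. Ntf-2, the carrier that returns Ran to the nucleus, had 208, 174, 470 and 352 CPM in S2 and 527 and 393 CPM in S2-AbdA. Its rise of 1.23 against S2 replicates 1 and 2 (adjusted p = 0.08) was lost when any library of those sets was left out. The S2 sets differed (log2 1.44, adjusted p = 0.0234, lost without S2 replicate 2) and S2-AbdA overlapped S2 replicates 3 and 4. Pp4-19C, the catalytic subunit of protein phosphatase 4, had 164, 134, 243 and 171 CPM in S2 and 374 and 310 CPM in S2-AbdA, with no overlap and no call in either comparison.

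Of 6 listed members for RNA and protein handling (Zw, Pp4-19C, mal, Ntf-2, DIP1 and l(1)G0196), all were tested. In the first comparison mal and Ntf-2 rose, 0 fell and 4 did not pass. Their median log2 fold change was 0.98, while the median over all genes was -0.02. Against S2 replicates 3 and 4, 2 rose and 0 fell. Over all tested genes 3.0% rose and 7.36% fell in the first comparison, and 14.7% rose and 17.1% fell in the second. The gene l(1)G0196, an inositol pyrophosphate kinase, had 391, 406, 116 and 282 CPM in S2 and 579 and 845 CPM in S2-AbdA. DIP1, which binds double-stranded RNA, had 145, 162, 55.7 and 98.1 CPM in S2 and 127 and 169 CPM in S2-AbdA, and so overlapped S2.

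Cytoskeleton and motor genes were a further list. Of 8 listed members (AnnX, sw, RhoGAP19D, unc, fliI and 3 Sdic copies) 5 were tested, with a median of 1.04 against S2 replicates 1 and 2 and 0 calls. At an unadjusted p under 0.05, 4 of the 5 were higher by edgeR, and DESeq2's adjusted test called 2 higher. Against S2 replicates 3 and 4, 3 of the 5 rose and 0 fell. All tested genes gave 3.0% rises and 7.36% falls against replicates 1 and 2, and 14.7% and 17.1% against replicates 3 and 4. The gene sw, which encodes the intermediate chain of cytoplasmic dynein, had 39.1, 35, 7.24 and 27.5 CPM in S2 and 68.8 and 87.5 CPM in S2-AbdA. Its Sdic neighbours are near-identical copies of part of it, so the division of reads among them is uncertain. The gelsolin family member fliI had 49.5, 54.9, 15.5 and 58.3 CPM in S2 and 128 and 124 CPM in S2-AbdA. AnnX, an annexin, had 165, 131, 334 and 180 CPM in S2 and 416 and 325 CPM in S2-AbdA, where S2 replicate 3 lay between the S2-AbdA libraries.

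Genes of membrane traffic and adhesion are also found in the segment. Rab10, a small GTPase of vesicle traffic, had 231, 226, 261 and 238 CPM in S2 and 586 and 496 CPM in S2-AbdA. Its 4 S2 values lay within a narrow band and both S2-AbdA values were clear of it, at log2 fold changes of 1.21 (SE 0.35, edgeR adjusted p = 0.0572) against replicates 1 and 2 and 0.76 (adjusted p = 0.133) against replicates 3 and 4. The gene parvin encodes an integrin-linked adhesion protein. It had 118, 110, 112 and 102 CPM in S2 and 275 and 241 CPM in S2-AbdA, again with no overlap. Its log2 fold changes of 1.14 and 0.92 both passed (edgeR adjusted p = 0.0809 and 0.0843). Rab35, another GTPase of the family, had 169, 170, 28.7 and 105 CPM in S2 and 226 and 340 CPM in S2-AbdA, and rose against S2 replicates 3 and 4 alone (log2 1.86, adjusted p = 0.0224). Pmp70, a peroxisomal ABC transporter, had 84.9, 84.8, 39.2 and 65.2 CPM in S2 and 181 and 207 CPM in S2-AbdA, and rose against both sets (1.15 and 1.60, adjusted p = 0.0685 and 0.0113). The calls of Rab10 and parvin, and that of Pmp70 against replicates 1 and 2, were lost when S2 replicate 1, S2 replicate 2 or either S2-AbdA library was left out. These 4 genes were picked for their known roles after their values were seen.

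Signalling genes of the segment include kinases and their regulators. Tak1, a kinase of the immune deficiency pathway, had 93.8, 97.3, 18.1 and 54.2 CPM in S2 and 163 and 189 CPM in S2-AbdA. Its log2 fold changes were 0.84 (adjusted p = 0.351) and 2.05 (edgeR adjusted p = 0.00944). The gene cactin, which acts in Rel signalling and splicing, had 54.1, 41, 9.46 and 29.7 CPM in S2 and 97.8 and 137 CPM in S2-AbdA. Its log2 fold changes were 1.27 (adjusted p = 0.129) and 2.35 (edgeR adjusted p = 0.00645). Both genes had their lowest level in S2 replicate 3 and both groups stayed apart. S6kII, the fly RSK kinase, had 33.9, 37.9, 19.4 and 35.3 CPM in S2 and 105 and 73.5 CPM in S2-AbdA. It passed against S2 replicates 1 and 2 as well (log2 1.27, edgeR adjusted p = 0.0564), a call lost without S2 replicate 1, S2 replicate 2 or S2-AbdA replicate 1. Its 1.42 against replicates 3 and 4 was lost without S2-AbdA replicate 1.

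Of the listed neuronal and membrane members (shakB, bves, sol and slgA), 1 rose against S2 replicates 1 and 2, and 3 rose and 1 fell against replicates 3 and 4. Of all tested genes 3.0% rose and 7.36% fell in the first comparison, and 14.7% and 17.1% in the second. The riser in the first was sol, a calpain family protease named for small optic lobes, with 113, 152, 66.2 and 126 CPM in S2 and 392 and 268 CPM in S2-AbdA. It rose by log2 1.27 against replicates 1 and 2 (edgeR adjusted p = 0.066), a call lost without S2 replicate 1, S2 replicate 2 or S2-AbdA replicate 1. Its rise against replicates 3 and 4 was lost without S2-AbdA replicate 1. The Popeye family gene bves had 85.6, 131, 29.2 and 45.2 CPM in S2 and 218 and 213 CPM in S2-AbdA, and rose against replicates 3 and 4 (log2 2.24, adjusted p = 0.00255). The third riser there, shakB, was near the detection floor, with 6, 17, 2 and 8 counts in S2 and 13 and 16 in S2-AbdA. Its call (edgeR adjusted p = 0.0812) was lost without S2 replicate 1, S2 replicate 3 or either S2-AbdA library. CG32512 had 98.7, 173, 26.5 and 60.6 CPM in S2 and 360 and 434 CPM in S2-AbdA, a log2 fold change of 1.51 against S2 replicates 1 and 2 that was lost without S2 replicate 1 or S2-AbdA replicate 2. The proline dehydrogenase gene slgA was the one that fell, with 88, 90.5, 102 and 173 CPM in S2 and 96.7 and 86.6 CPM in S2-AbdA (log2 -0.87 against replicates 3 and 4, adjusted p = 0.0891), a call lost when S2 replicate 1, S2 replicate 2 or either S2-AbdA library was left out.

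Patterning and signalling genes of the embryo were also listed. Of vfl, amn, run and fog, none passed against S2 replicates 1 and 2 by edgeR (1 higher at an unadjusted p under 0.05 and 1 by DESeq2), where the median was 0.23. In the comparison with replicates 3 and 4, 3 rose and 1 fell. All tested genes gave 3.0% rises and 7.36% falls in the first comparison, and 14.7% and 17.1% in the second. The gene fog encodes the secreted ligand that folds the gastrula. It had 131, 135, 46.4 and 116 CPM in S2 and 175 and 274 CPM in S2-AbdA, above all S2 libraries. The gene vfl encodes Zelda, the pioneer factor of zygotic genome activation, and had 10.5, 12.3, 10.2 and 30.7 CPM in S2 and 4.47 and 10.1 CPM in S2-AbdA. It was the list's fall (log2 -1.72, edgeR adjusted p = 0.0327), a call lost without S2-AbdA replicate 1. Of the rises, fog (log2 1.22) was lost without S2-AbdA replicate 2, the memory neuropeptide gene amn without S2-AbdA replicate 1, and run (2.11) without S2 replicate 3 or S2-AbdA replicate 2. The pair-rule gene run was near the detection floor, at 0.0185 to 1.17 CPM in S2 and 0.506 and 1.27 CPM in S2-AbdA.

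Of 7 listed chemosensory members (Or19a, Or19b, Obp19a to Obp19d and Ir20a) 3 were tested. None passed against S2 replicates 1 and 2 by edgeR (1 higher and 1 lower at an unadjusted p under 0.05, 1 lower by DESeq2), and 1 rose and 1 fell against replicates 3 and 4. Over all tested genes 3.0% rose and 7.36% fell in the first comparison, and 14.7% rose and 17.1% fell in the second. The riser, Obp19d, was near the detection floor, with 3, 3, 0 and 2 counts in S2 and 11 and 17 in S2-AbdA. Only its S2-AbdA counts were enough for the filter, so nothing is read from that call. The odorant receptor gene Or19b was lower in S2-AbdA, with 10.2, 11, 17.3 and 15.1 CPM in S2 and 5.63 and 5.11 CPM in S2-AbdA. Both S2-AbdA libraries lay below all S2 libraries, and the log2 fold change was -1.01 (adjusted p = 0.143) against S2 replicates 1 and 2 and -1.94 (edgeR adjusted p = 0.00577) against replicates 3 and 4.

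Or19b was 1 of 8 well expressed members from Bap on with a log2 fold change of 0.5 or less against S2 replicates 1 and 2. The others were CG34334 at -1.10, CG32521 at -0.95, vfl at -0.68, DIP1 at -0.09, slgA at -0.00, Hers at 0.11 and CG14476 at 0.32. CG32521 had 429, 380, 195 and 361 CPM in S2 and 182 and 248 CPM in S2-AbdA. Hers, a repressor of the histone genes, had 247, 423, 47.2 and 120 CPM in S2 and 360 and 383 CPM in S2-AbdA, within the S2 range. CG14476 encodes the alpha subunit of glucosidase II, and had 660, 573, 324 and 358 CPM in S2 and 823 and 756 CPM in S2-AbdA.

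The members that fell against S2 replicates 1 and 2 were 7: CG1503, CG15446, CG42581, CG12446, CR44109, obst-A and CR43656. CG1503 had 26.3 and 17.9 CPM in S2 replicates 1 and 2, 1.59 and 0.458 CPM in S2 replicates 3 and 4, and 0.738 and 1.42 CPM in S2-AbdA. S2-AbdA thus resembled S2 replicates 3 and 4, and replicates 1 and 2 stood alone. Its fall of -4.38 (edgeR adjusted p = 0.00173) held with any 1 library left out. All but CR43656, 6 of the 7, also passed as falls from S2 replicates 1 and 2 to S2 replicates 3 and 4, where 18.9% of all tested genes fell. Both comparisons use S2 replicates 1 and 2, so a gene high in that set tends to fall in both. Peritrophin-A, which encodes a chitin-binding protein, went the other way, with 0 counts in S2 replicates 1 and 2 and 12 and 10 counts in S2-AbdA. In S2 replicates 3 and 4 it had 5 and 2 counts. Only its S2-AbdA counts were enough for the filter, so nothing is read from that rise.

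The 65 members that were not tested were nearly silent. Their highest count in any library was 22, and 14 had no count at all. Their summed level was 0.703 to 1.69 CPM in the S2 libraries and 3.33 and 3.93 CPM in the S2-AbdA libraries, which counts 47, 74, 38 and 84 reads in S2 and 158 and 182 in S2-AbdA. Among the tested members, 25 overlap another row on the map, CG32512 and bves, Hers and amn, fog, S6kII, Ntf-2, CG1518 and l(1)G0196 among them. Whether the counting used strand is not stated, so reads of such pairs cannot be told apart.

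Genes of the dosage compensation machinery, which lie elsewhere in the genome, were listed as well. Of 11 tested, 0 rose and 1 fell against each S2 set by edgeR, and the median was -0.18 against replicates 1 and 2 and 0.16 against replicates 3 and 4. Over all tested genes 7.36% fell against replicates 1 and 2 and 17.1% against replicates 3 and 4, while 3.0% and 14.7% rose. At an unadjusted p under 0.05, and by DESeq2, 0 were higher against replicates 1 and 2 and 1 was higher against replicates 3 and 4. The fall against replicates 1 and 2 was roX1, at 0.876 and 1.85 CPM in S2 replicates 1 and 2, 0.333 and 0.272 CPM in replicates 3 and 4, and 0.253 and 0.216 CPM in S2-AbdA (log2 -2.57, adjusted p = 0.0109, lost without S2 replicate 2). The other roX RNA, roX2, had 31.8, 39, 101 and 84.6 CPM in S2 and 28.4 and 20.7 CPM in S2-AbdA, and fell against replicates 3 and 4 (-2.28, adjusted p = 0.00309). For msl-2, the limiting subunit of the complex, the levels were 65.5, 75.3, 39.2 and 79.5 CPM in S2 and 105 and 92.7 CPM in S2-AbdA, and its log2 fold change of 0.45 did not pass (adjusted p = 0.721). The acetyltransferase gene mof stood at 0.22 and the helicase gene mle at -0.18. The part of these RNAs in the segment's level was not tested.

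In the authors' deposited table of changed genes, 86 of the 190 members were listed, 75 as higher and 11 as lower in S2-AbdA. That is 39.5% and 5.79% of the members, while the authors' deposited table lists 6.06% of all rows as higher and 8.31% as lower. Of X rows outside, 6.39% and 8.69% were listed. The members listed as higher in the authors' deposited table had a median log2 ratio of 1.18. For mal the authors' deposited table gives 1.76 and for CG1503 -4.33. By the labels, that table rests on the S2-AbdA libraries and the first S2 set, so it shares its libraries with the comparison above.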

How the data were processed

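The members, gene lists and tests were chosen with earlier results of these data known. The authors deposited raw counts per gene for 6 libraries, not normalized, with dm3 coordinates. Per the submitters' processing notes CASAVA, edgeR and dm3 were used. Their versions, the aligner, the counter and the strand setting are not stated there. The authors also deposited a table of 2122 changed genes with log2 values, p-values and false discovery rates. Per the file headers 1 log2 column is a fold change and 1 a concentration, but against the counts the headings were exchanged (r = -0.946 and 0.998 across genes), and the ratio was turned to S2-AbdA over S2.

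Counts were fitted with edgeR 4.0.16 in R 4.3.3 (glmQLFit robust, glmQLFTest) with limma 3.58.1, on all 6 libraries as 3 sets, after filterByExpr and TMM scaling, with Benjamini-Hochberg adjustment over 9375 genes and a threshold of 0.1. The fit had 3 residual degrees of freedom. DESeq2 1.42.0 was an alternative. Tables were made with scipy 1.17.1, numpy 2.4.6 and pandas 2.3.3 under Python 3.11.15. CPM are counts over the library total, and log2 values used a pseudocount of 0.5 CPM. The fit was tested on simulated data.

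Named genes were the 4 rows on each side of the bounds, the 6 most abundant members, the 8 largest rises and falls per comparison with at least 5 CPM in the higher set, and listed genes. Others were chosen after their values were seen. Between the libraries of a set the chi-square per gene was 58.6, 600 and 169, so no library copied another. Current symbols came from NCBI gene numbers, matched for 187 members. Depths set the precision, and SDs over 2 libraries are imprecise. Promoter sequences were not analysed here.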

Additional observations from a re-analysis of the deposited data

Results flagged for a closer look

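Over the 4 S2 libraries 56 values were checked for a library far from the others, and 4 stood out, where chance alone flags about 1 in 20. Rab21 had 18.3 CPM in S2 replicate 3 and 9.46 to 10.3 CPM in the other S2 libraries. The gene slgA had 173 CPM in S2 replicate 4 and 88 to 102 CPM in the others. The gene vfl had 30.7 CPM in S2 replicate 4 and 10.2 to 12.3 CPM in the others. The share of X counts that lie in the segment was 5.19% in S2 replicate 3 and 6.06% to 6.19% in the others.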

How the results depend on the processing

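No direction reversed among the values recomputed. Against S2 replicates 1 and 2 the number of segment genes that rose, 27, was 44 with DESeq2's Wald test, 69 with only replicates 1 and 2 of each group and 1 with all S2 libraries as 1 group; left-out libraries gave 5 to 71. The number that fell, 7, was 2 among genes of at least 1 CPM, 11 with only replicates 1 and 2, 0 with all S2 as 1 group and 0 from 10 CPM; left-out libraries gave 4 to 11. The median difference from the rest of the X, 0.76, was 0.83 with no filter, 0.86 from 1 CPM, 0.84 with all S2 as 1 group, 0.88 from Bap on and 0.87 from 10 CPM; left-out libraries gave 0.76 to 0.83.

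With the replicate block 66 members rose in this comparison. The same-numbered libraries shared only a number (r = -0.00683 over 9375 genes, 2 pairs).

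Against S2 replicates 3 and 4 the falls were 2 with library size alone and 3 from 10 CPM. Every median in this paragraph is that of the members minus that of the rest of the X. The median difference was 0.86 with no filter, 0.85 from 1 CPM and 0.81 without overlapping genes. Left-out libraries gave 28 to 66 rises, 2 to 14 falls and medians of 0.69 to 0.98. Between the S2 sets the rises were 6 with library size alone, 12 with the upper quartile and 11 from 1 CPM, and the falls 20 from 1 CPM and 13 from 10 CPM. The median difference was -0.05 with no filter, -0.22 from 1 CPM, -0.25 with left-out symbols put back, -0.16 without overlapping genes, -0.25 from Bap on and -0.33 from 10 CPM. Left-out libraries gave 1 to 36 rises, 13 to 47 falls and medians of -0.33 to -0.16.

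The alternatives from Bap on and from 10 CPM were chosen after seeing the data. When a library is left out, the other of its set is alone and is assumed to vary like the rest. Calls lost in that way thus also depend on the spread of the other sets. Sets of 2 libraries limit every test, and members under the filter could not be tested.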

Other observations

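The files also place 11 tested genes on XHet, unplaced heterochromatin of the X, outside the segment's bounds. Their median log2 fold change was 1.10 against S2 replicates 1 and 2 and 1.33 against S2 replicates 3 and 4. By edgeR 4 rose and 0 fell in the first comparison, and 9 rose and 0 fell in the second. Over all tested genes 3.0% rose and 7.36% fell in the first, and 14.7% rose and 17.1% fell in the second. The gene su(f), which encodes a subunit of the complex that cleaves messenger RNA at its 3' end, had 108, 106, 29.2 and 77.1 CPM in S2 and 169 and 217 CPM in S2-AbdA, with no overlap between the groups. CG2893 had 6.51, 5.78, 3.54 and 3.16 CPM in S2 and 41.4 and 54.2 CPM in S2-AbdA (log2 2.92, edgeR adjusted p = 0.000817, against S2 replicates 1 and 2). CG17167 had 4.38 and 5.07 CPM in S2 replicates 1 and 2, 0.555 and 0.229 CPM in S2 replicates 3 and 4, and 2.57 and 2.27 CPM in S2-AbdA, and rose against replicates 3 and 4 (log2 2.25, adjusted p = 0.0179) but not against replicates 1 and 2 (-1.01, adjusted p = 0.354).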
